A study of Mus musculus with 9 samples.

Results

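The 59 genes described here are the chemokines and their receptors, taken as every row of the deposited table whose gene symbol names a CC, CXC, CX3C or XC chemokine, a CC, CXC or XC receptor, or an atypical chemokine receptor. They make up 59 of the 22192 genes in the table, 38 of them ligands and 21 receptors. The measurements are of mRNA in 9 brain libraries. All mice are labelled as males of KM, an outbred stock. The 18M_E1F2 group is 18-month-old mice given GRP-E1F2, a ginseng root polysaccharide, at 200 mg/kg by gavage. The 18M_Ctrl group is 18-month-old mice given physiological saline, and the 5M_Ctrl group is 5-month-old mice given saline. Doses were given every 2 days for 4 weeks. Each group has 3 libraries, the labels name no altered gene, and no 5-month-old mice received GRP-E1F2. The titles number the libraries and call them parallel samples, without stating whether each is a different animal. P-values therefore reflect only how far these libraries spread, and that spread may be technical. Values are TPM (a level per transcript length, scaled to the same total in each library), and differences are on the log2(TPM + 1) scale.

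Chemokines are small secreted or membrane-bound proteins that set the direction of cell movement by binding seven-helix receptors coupled to G proteins. Inflammatory chemokines are induced by cytokines through factors such as NF-kB and draw leukocytes to a site, while homeostatic chemokines are made steadily and place cells in lymphoid organs, skin, gut and the developing brain. Atypical receptors bind chemokines without G-protein signalling and take them up. In the brain, neurons make Cx3cl1, whose receptor Cx3cr1 marks microglia, and Cxcl12 with Cxcr4 guides migrating neurons and holds cells in their niches.

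Several Ccl21 rows stand for genes of nearly the same coding sequence, which is shown because their levels cannot be read apart. Over the 399 coding bases in GENCODE vM21 (GRCm38), Ccl21b, Ccl21d and the predicted genes Gm10591 and Gm13304 were identical, and Ccl21a differed from them at 2 bases, T84A and C194T. Positions are counted from 1 at the first coding base, and each substitution gives the Ccl21a base first. The stretch of coding bases 69 to 209 that holds both differences is shown for Ccl21a, whose coding bases span chr4:42773256-42773918 on the minus strand, and for Ccl21b, at chr4:42255767-42256429 on the plus strand. Capitals mark the bases that differ.
Ccl21a: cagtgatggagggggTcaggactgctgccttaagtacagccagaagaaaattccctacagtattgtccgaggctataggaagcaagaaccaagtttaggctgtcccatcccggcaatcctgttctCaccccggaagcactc
Ccl21b: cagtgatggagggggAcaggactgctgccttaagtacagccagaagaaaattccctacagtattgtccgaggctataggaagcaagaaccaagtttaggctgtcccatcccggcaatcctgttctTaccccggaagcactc
The Gm10591 and Gm13304 rows held the same value in all 9 libraries. The Ccl21b value was the sum of the Ccl21d and Gm10591 values to within 0.001 TPM in 6 of 9 libraries. The Ccl27b row held the same value as the predicted gene Gm13306 in all 9 libraries, and their coding sequences share an unbroken run of 289 bases. The longest run that Ccl27a shares is 221 bases with Gm13306 and 119 bases with Ccl27b. The sources used here do not say how reads that match several of these genes were divided. The levels of Ccl21a, Ccl21b, Ccl21d, Ccl27a and Ccl27b are therefore uncertain.

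The 250 bases before the RefSeq start of Cx3cl1, Cxcl12 and Cxcr4 (GRCm38.p6) are shown because these 3 genes changed between 18M_E1F2 and 5M_Ctrl, Cx3cl1 upward and Cxcl12 and its receptor Cxcr4 downward. They lie at chr8:94771930-94772179 on the plus strand, chr6:117168285-117168534 on the plus strand and chr1:128592300-128592549 on the minus strand. Capitals mark any match to TATAAA on either strand.
Cx3cl1: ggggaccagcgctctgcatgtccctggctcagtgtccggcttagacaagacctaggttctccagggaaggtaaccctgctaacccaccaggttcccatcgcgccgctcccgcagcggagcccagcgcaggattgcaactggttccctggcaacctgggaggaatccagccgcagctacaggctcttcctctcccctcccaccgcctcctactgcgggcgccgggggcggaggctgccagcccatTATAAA
Cxcl12: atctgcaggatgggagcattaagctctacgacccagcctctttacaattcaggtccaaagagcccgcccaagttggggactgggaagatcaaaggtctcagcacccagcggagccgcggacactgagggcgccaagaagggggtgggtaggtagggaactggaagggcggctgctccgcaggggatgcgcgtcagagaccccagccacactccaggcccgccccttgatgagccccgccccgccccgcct
Cxcr4: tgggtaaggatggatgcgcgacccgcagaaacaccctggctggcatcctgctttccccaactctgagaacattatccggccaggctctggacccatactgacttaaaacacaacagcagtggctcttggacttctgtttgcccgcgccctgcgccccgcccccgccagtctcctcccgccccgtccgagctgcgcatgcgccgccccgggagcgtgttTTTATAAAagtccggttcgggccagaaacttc
The windows held 14, 14 and 19 CpG dinucleotides, and the median of all promoters was 6. Of 4 motifs searched on both strands, the kappaB consensus, an interferon-response motif (a pair of GAAA repeats with 2 bases of any kind between), TATAAA and CACGTG, only TATAAA matched in these 3 windows, once for Cx3cl1 and at 2 overlapping places, 1 on each strand, for Cxcr4. RefSeq held 52 promoters for 45 of the 59 genes. The kappaB consensus was in 21.2% of those promoters and in 7.25% of all 32851 promoters of the same length, TATAAA in 26.9% and 12.4%, the interferon-response motif in 5.77% and 2.98%, and CACGTG in 3.85% and 6.02%. Members that entered the expression tests had 27 of these promoters, for 21 genes. There the shares were 11.1% for the kappaB consensus, 25.9% for TATAAA, 11.1% for the interferon-response motif and 0% for CACGTG. A match is a description of the letters only.

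Several features of the libraries bear on every comparison. Some libraries took values intermediate between their group's remaining pair, at most genes where that pair differed at least 1.3-fold. This held for 18M_E1F2 replicate 3 at 91.9% of such genes averaging 1 TPM or more, for 18M_Ctrl replicate 2 at 91.5% and for 5M_Ctrl replicate 3 at 89.1%. Over all genes, zeros included, the shares were 74.1%, 73.5% and 67.6%, and for the 6 other libraries they were 21.3% to 33.5%. Tests were therefore also run without these libraries, on 2 libraries per group, and the results of that fit stand beside each comparison. Neuronal markers summed to 4250 to 5214 TPM, while 5 of 8 photoreceptor markers were under 1 TPM in every library, although the extraction protocol speaks of retina. All 12 cerebellar neuron markers were tested, and their sum was 203 to 208 TPM in 18M_E1F2, 2177 to 2556 TPM in 18M_Ctrl and 3505 to 5044 TPM in 5M_Ctrl. Of the 12, 11 were also lower on 2 libraries per group in 18M_E1F2 than in 18M_Ctrl, and 12 were lower than in 5M_Ctrl. Choroid plexus markers summed to 21.9 to 962 TPM in 18M_E1F2, 164 to 1252 TPM in 18M_Ctrl and 2244 to 2302 TPM in 5M_Ctrl. Olfactory markers summed to 32.1 to 160, 62.5 to 110 and 18.2 to 20.3 TPM in the same order. With age, 4 of 7 tested choroid plexus genes fell and 3 of 6 olfactory genes rose, and 0 of either with 2 libraries per group. The part of these differences in the chemokine results was not tested.

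Of the 59 genes, 50 were above 0 TPM in at least 1 library and 24 in all 9. The 9 genes listed at 0 in every library were the ligands Ccl20, Cxcl2, Cxcl3, Cxcl15 and Cxcl17 and the receptors Ccr3, Ccr4, Ccr8 and Xcr1. Counting a gene as detected in a group when it exceeded 0.1 TPM in all 3 libraries, 27 were detected in 18M_E1F2, 30 in 18M_Ctrl and 28 in 5M_Ctrl, and 23 in all 3 groups. The summed level of the family was 994 to 1640 TPM per library, of which Cxcl14, Ccl27a, Cx3cl1 and Cxcl12 together held 86.9% to 90.6%. The receptors summed to 46.3 to 58.9 TPM, most of it Ackr1. Over the 9 libraries 21 ligands and 5 receptors averaged 1 TPM or more, and these 26 genes entered the tests. Ackr2 and Ccl22 reached a mean of 1 TPM in 18M_E1F2 alone among the groups, so they passed through the group where they were high. Ccl21a, listed at 0 in 5M_Ctrl, passed through 18M_E1F2 and 18M_Ctrl.

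**Figure D1:**
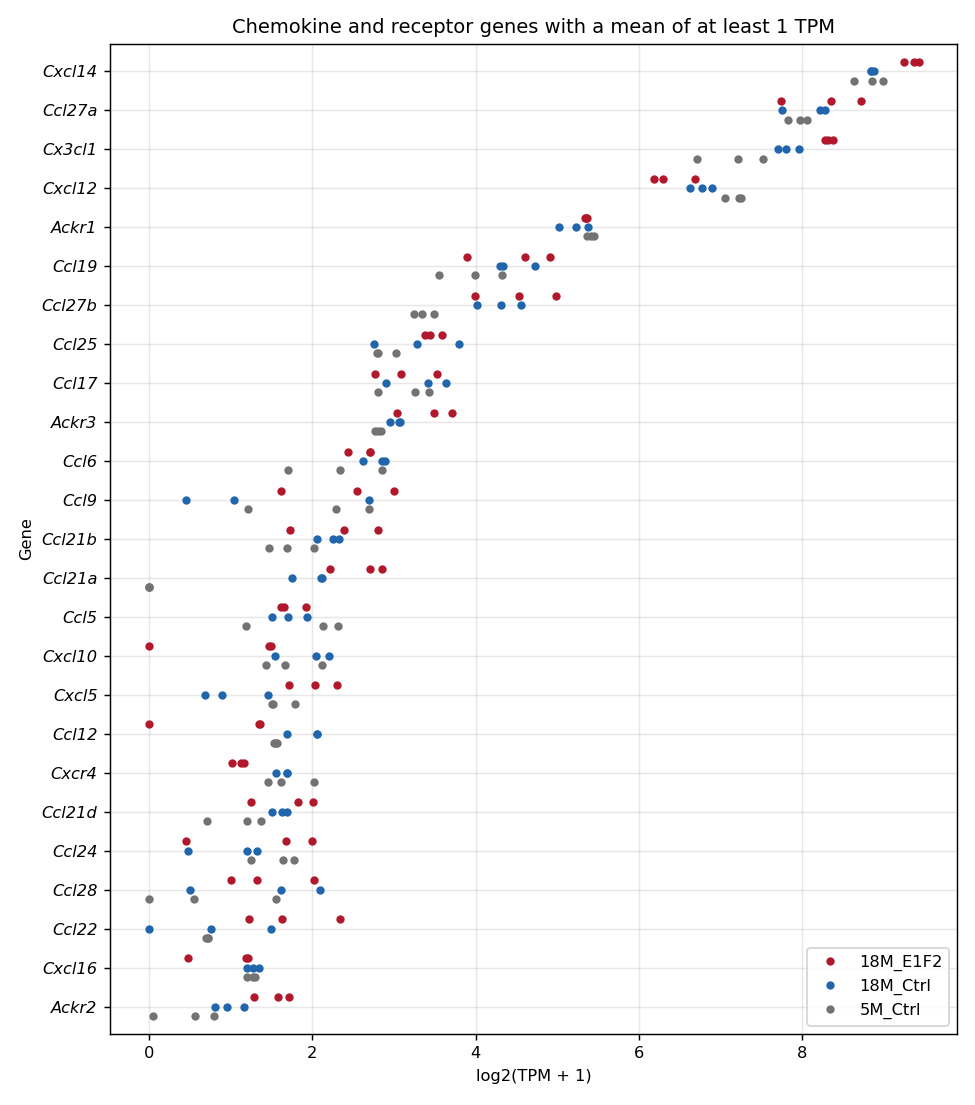
Levels of 25 of the 26 tested genes on the log2(TPM + 1) scale, 1 point per library, with the 18M_E1F2, 18M_Ctrl and 5M_Ctrl libraries as 3 lines of points per gene. Cxcl14, Ccl27a, Cx3cl1 and Cxcl12 stand above all others, and Ccl21a is at 0 in the 5M_Ctrl libraries.

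With age, comparing 18M_Ctrl with 5M_Ctrl, 3 ligands rose and no member passed the test downward: the lymphoid chemokine Ccl21a, the skin-homing chemokine Ccl27b and the neuronal chemokine Cx3cl1. These are 3 of 26 genes, or 11.5%, where 16.7% of all 13301 tested genes were called at an adjusted p under 0.05, 5.48% upward and 11.2% downward. At an unadjusted p under 0.05, limma put 3 members lower. The groups did not overlap for 10 of 26 members, 38.5%, against 41.5% of all genes, so both shares lay near or under the background. The median difference of the 26 was 0.18 on the log2 scale, against -0.052 for all genes tested.

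Cx3cl1, a membrane-bound chemokine that can be shed, had 248, 222 and 207 TPM in 18M_Ctrl, against 183, 104 and 148 TPM in 5M_Ctrl. Every 18M_Ctrl library was above every 5M_Ctrl library, and the difference was 0.67 ± 0.17 (SE, adjusted p = 0.0313). Ccl27b, a ligand of Ccr10, had 22.6, 18.9 and 15.2 TPM in 18M_Ctrl, against 10.3, 8.48 and 9.15 TPM in 5M_Ctrl. Its groups were apart as well, by 0.94 ± 0.23 (SE, adjusted p = 0.0276). Ccl21a, a ligand of Ccr7, had 3.35, 3.31 and 2.36 TPM in 18M_Ctrl and was listed at 0 in all 3 libraries of 5M_Ctrl, so no fold is given (adjusted p = 0.000988). Its near-identical rows were above 0 in 5M_Ctrl, with Ccl21b at 3.05, 1.77 and 2.24 TPM and Ccl21d at 1.58, 0.643 and 1.3 TPM.

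With 2 libraries per group no member was called for age by limma, where 0.0226% of all genes were, and 4 members had an unadjusted p under 0.05. The adjusted p of Cx3cl1 was then 0.409 and that of Ccl27b 0.418. Over 23 alternatives it ranged from 2.36e-08 to 0.51 for Cx3cl1 and from 1.43e-09 to 0.517 for Ccl27b. The Ccl27b call ended on leaving out 18M_E1F2 replicate 3 (adjusted p = 0.0503), 18M_Ctrl replicate 1 (0.0773), 18M_Ctrl replicate 2 (0.0967), 5M_Ctrl replicate 2 (0.0936) or 5M_Ctrl replicate 3 (0.0938). The Cx3cl1 call ended on leaving out the same libraries, with adjusted p of 0.0554, 0.0829, 0.0986, 0.0514 and 0.0902 in that order, and in a fit of the compared groups alone (0.0534). The Ccl21a call ended with 2 libraries per group (adjusted p = 0.122, and 2.93e-11 to 0.149 over 22 alternatives).

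**Figure D2:**
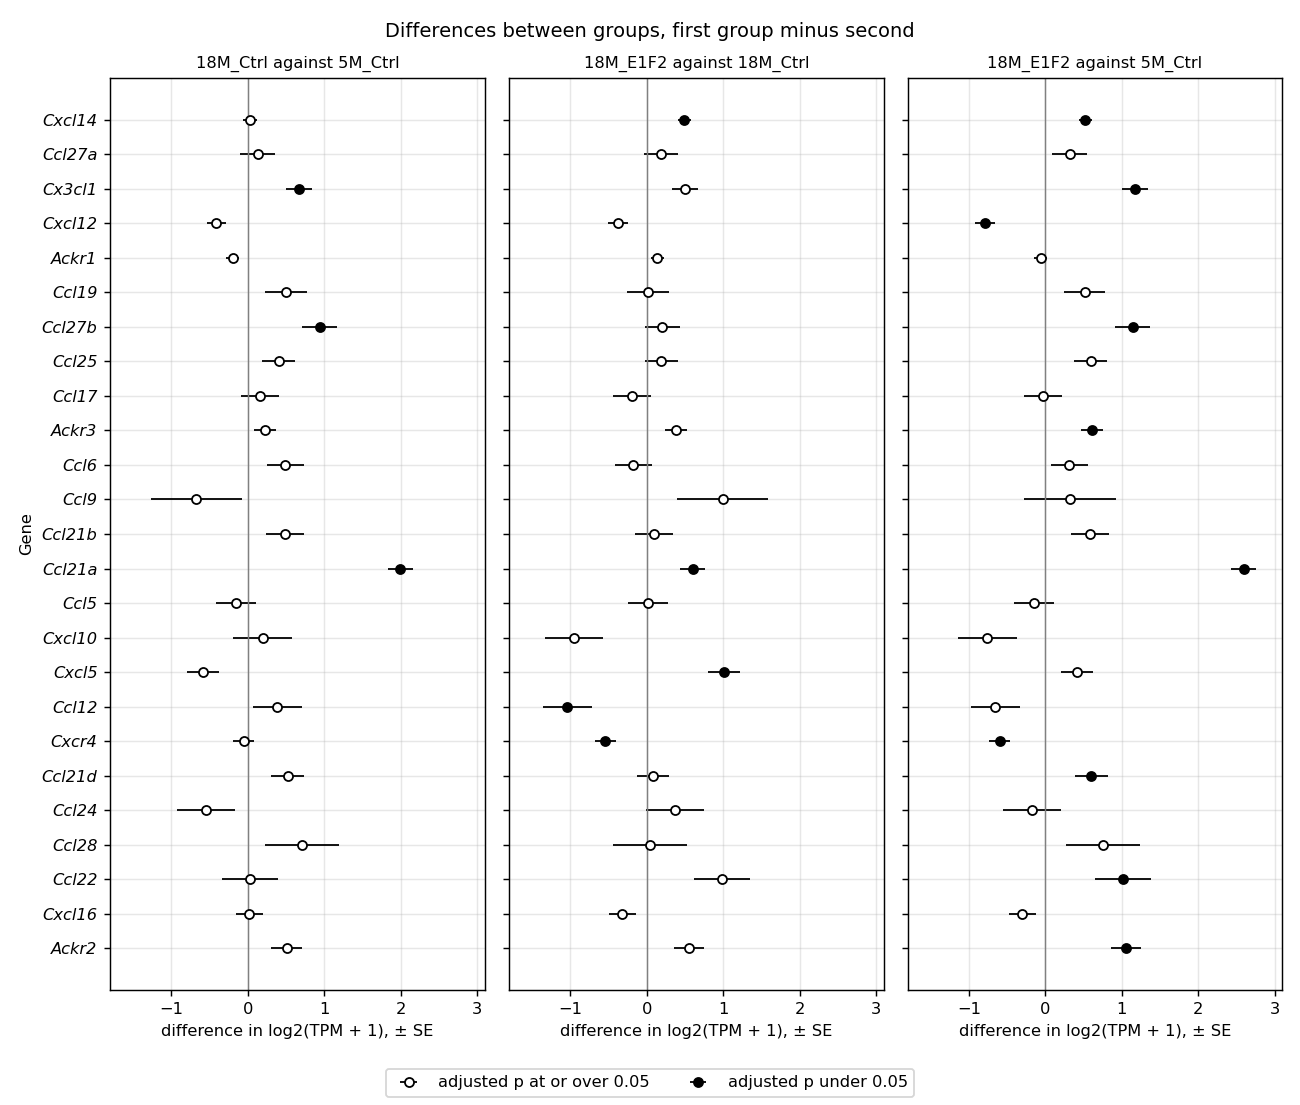
Difference in log2(TPM + 1) between groups with its standard error, for 25 of the 26 tested genes in 3 comparisons, first group minus second. Filled points passed an adjusted p under 0.05 in limma, 3 genes for age, 5 for GRP-E1F2 in aged mice and 10 for 18M_E1F2 against 5M_Ctrl, and the difference of Ccl21a against 5M_Ctrl depends on the pseudocount.

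With GRP-E1F2 in aged mice, comparing 18M_E1F2 with 18M_Ctrl, 3 ligands rose and a ligand and a receptor fell. The most abundant member, Cxcl14, rose by 0.49 on the log2 scale, the neutrophil attractant Cxcl5 by 1.01 and Ccl21a by 0.60. Cxcr4, the receptor of Cxcl12, fell by 0.54 and the monocyte attractant Ccl12 fell by 1.03. These are 5 of 26 genes, or 19.2%, where 20.8% of all genes tested were called, 7.47% upward and 13.4% downward. The groups did not overlap for 8 of 26 members, 30.8%, against 36.3% of all genes. The median difference was 0.17, against -0.015 for all genes.

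Cxcl14, a chemokine of epithelia and of interneurons in the mouse brain, had 605, 687 and 659 TPM in 18M_E1F2, against 458, 469 and 456 TPM in 18M_Ctrl. Its groups were apart (0.49 ± 0.088 SE, adjusted p = 0.00500), and the 5M_Ctrl libraries, at 505, 396 and 461 TPM, lay around the 18M_Ctrl values. Cxcl5 had 2.29, 3.09 and 3.96 TPM in 18M_E1F2, against 0.612, 0.860 and 1.75 TPM in 18M_Ctrl (1.01 ± 0.21 SE, adjusted p = 0.0107). The 5M_Ctrl libraries had 1.85, 2.45 and 1.86 TPM of Cxcl5, above every 18M_Ctrl library and within the range of 18M_E1F2. Cxcl5 differed from 5M_Ctrl by 0.42 ± 0.21 (SE) in 18M_E1F2 and by -0.59 ± 0.21 (SE) in 18M_Ctrl, and neither passed the test (adjusted p = 0.134 and 0.0834). The Cxcl14 and Cxcl5 calls with GRP-E1F2 in aged mice held on leaving out any 1 of the 9 libraries, which keeps most of the in-between libraries. Both calls ended with 2 libraries per group, which leaves out all of the in-between libraries. The Cxcl5 difference was 1.54 with a pseudocount of 0.1 TPM and 0.42 with one of 5 TPM. In the neutrophil marker list, 4 of 5 tested genes fell in this comparison (with 2 libraries per group, 2 of 5). With age, 4 of 5 rose (with 2 libraries per group, 0). The summed level of the list was 1.54 to 5.23 TPM in 18M_E1F2, 38.0 to 105 TPM in 18M_Ctrl and 6.04 to 8.91 TPM in 5M_Ctrl. Of its 11 genes, 4 were under 1 TPM in every library. The part of these markers in the Cxcl5 result was not tested.

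Ccl21a had 3.67, 5.52 and 6.21 TPM in 18M_E1F2, against 3.35, 3.31 and 2.36 TPM in 18M_Ctrl (0.60 ± 0.16 SE, adjusted p = 0.0319). Its near-identical rows Ccl21b and Ccl21d differed by 0.095 ± 0.25 and 0.084 ± 0.21 (SE), and limma called neither (adjusted p = 0.817 and 0.812). How reads were divided among these rows is unknown. Cxcr4 had 1.19, 1.03 and 1.25 TPM in 18M_E1F2, against 1.94, 2.22 and 2.23 TPM in 18M_Ctrl (-0.54 ± 0.14 SE, adjusted p = 0.0247). Ccl12, a ligand of Ccr2, had 1.58, 1.55 and 0 TPM in 18M_E1F2, against 2.24, 3.17 and 3.18 TPM in 18M_Ctrl (-1.03 ± 0.32 SE, adjusted p = 0.0482). For each of Ccl21a, Cxcr4 and Ccl12 the 18M_E1F2 and 18M_Ctrl libraries did not overlap, and the nearest libraries were less than 1 TPM apart. The size of the Ccl12 difference rests on the library listed at 0, without which it was -0.58 (adjusted p = 0.0286).

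The rises and falls split 3 to 2, while median-of-ratios scaling gave 3 to 1 and quantile normalisation 5 to 0. With 2 libraries per group no member was called by limma, where 1.86% of all genes were, and 4 members, Cxcr4, Cxcl5, Ccl12 and Cxcl14, had an unadjusted p under 0.05. The adjusted p was then 0.192 for Cxcl14, 0.279 for Cxcl5, 0.377 for Ccl21a, 0.349 for Cxcr4 and 0.271 for Ccl12. Over all alternatives the adjusted p ranged from 3.36e-14 to 0.293 for Cxcl14, 1.01e-14 to 0.38 for Cxcl5, 1.96e-13 to 0.431 for Ccl21a, 9.04e-13 to 0.41 for Cxcr4 and 7.94e-14 to 0.314 for Ccl12. The Cxcr4 call ended without 18M_E1F2 replicate 2 (adjusted p = 0.0600) or 3 (0.0667) and without 18M_Ctrl replicate 2 (0.0914) or 3 (0.0640), and under quantile normalisation (0.0528). The Ccl21a call ended without 18M_E1F2 replicate 2 (adjusted p = 0.0771) or 3 (0.125), without 18M_Ctrl replicate 2 (0.0702) or 3 (0.0900), and without 5M_Ctrl replicate 3 (0.0542). It also ended with a pseudocount of 0.1 TPM (adjusted p = 0.052) and in a fit of the compared groups alone (0.0704). The Ccl12 call held under 6 of 22 alternatives, ended with a pseudocount of 0.1 TPM (adjusted p = 0.127) and without a filter (0.0696), and ended without 18M_Ctrl replicate 1 (adjusted p = 0.0582), 2 (0.146) or 3 (0.115), and without 5M_Ctrl replicate 1 (0.0663), 2 (0.0634) or 3 (0.0756).

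Aged mice given GRP-E1F2 differed from young mice in more members. Between 18M_E1F2 and 5M_Ctrl, 9 genes rose, among them the ligands Ccl21a, Ccl21d, Ccl22, Ccl27b, Cx3cl1 and Cxcl14 and the atypical receptors Ackr2 and Ackr3, and 2 fell, Cxcl12 and Cxcr4. These are 11 of 26 genes, or 42.3%, where 46.6% of all genes tested were called, 17.2% upward and 29.4% downward. They include Ackr2, Ccl22 and Ccl21a, which passed the filter through groups where they were high. The groups did not overlap for 13 of 26 members, 50%, against 61.4% of all genes. The median difference was 0.44, against -0.071 for all genes. This comparison shares the 18M_E1F2 libraries with the treatment comparison and the 5M_Ctrl libraries with the age comparison, and it changes age and treatment together.

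Cx3cl1 had 332, 310 and 319 TPM in 18M_E1F2, against 183, 104 and 148 TPM in 5M_Ctrl, with no overlap (1.18 ± 0.17 SE, adjusted p = 0.000613). The 18M_Ctrl libraries lay between, and 18M_E1F2 exceeded 18M_Ctrl by 0.50 ± 0.17 (SE), which missed the threshold (adjusted p = 0.0661) although those groups were apart too. Its receptor gene Cx3cr1, which the naming rule does not take, had 13.1, 17.2 and 15.2 TPM in 18M_E1F2, 10.5, 9.73 and 10.9 TPM in 18M_Ctrl and 10.6, 7.99 and 9.18 TPM in 5M_Ctrl. Cx3cr1 rose with GRP-E1F2 in aged mice (0.50 ± 0.12 SE, adjusted p = 0.0162) and against 5M_Ctrl (0.66 ± 0.12 SE, adjusted p = 0.00177). Both calls ended with 2 libraries per group, at 0.46 (adjusted p = 0.345) and 0.65 (adjusted p = 0.0643), and over 23 alternatives the adjusted p ranged from 4.85e-14 to 0.44 and from 1.46e-10 to 0.116. Microglial markers, Cx3cr1 among them, summed to 154 to 208 TPM in 18M_E1F2, 145 to 149 TPM in 18M_Ctrl and 102 to 120 TPM in 5M_Ctrl, with 10 of 11 higher in 18M_E1F2 than in 5M_Ctrl, and 4 with 2 libraries per group. In whole tissue, a change in the number of cells of a type and one in RNA per cell cannot be told apart. The part of the microglial markers in the Cx3cl1 result was not tested.

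Cxcl12, made by endothelial cells, meninges and neurons, had 102, 71.9 and 77.8 TPM in 18M_E1F2, against 132, 151 and 149 TPM in 5M_Ctrl (-0.79 ± 0.13 SE, adjusted p = 0.00107). The 18M_Ctrl libraries, at 97.4, 118 and 108 TPM, lay under every 5M_Ctrl library, but the age difference of -0.41 ± 0.13 (SE) missed the threshold (adjusted p = 0.0542). Cxcr4 had 1.19, 1.03 and 1.25 TPM in 18M_E1F2, against 1.75, 3.06 and 2.07 TPM in 5M_Ctrl (-0.59 ± 0.14 SE, adjusted p = 0.00700). Ackr3, the atypical receptor that takes up Cxcl12, went the other way, with 12.1, 7.22 and 10.2 TPM in 18M_E1F2, against 6.01, 6.17 and 5.80 TPM in 5M_Ctrl (0.61 ± 0.15 SE, adjusted p = 0.00803). Endothelial markers, 10 of 10 tested and 4 lower in this comparison, summed to 186 to 220 TPM in 18M_E1F2 and 250 to 266 TPM in 5M_Ctrl. On 2 libraries per group limma called 0 of them, and 2 had an unadjusted p under 0.05. Fibroblast markers, 10 tested with 9 lower and 1 higher, summed to 41.9 to 53.0 TPM and 112 to 125 TPM in the same groups, and 4 were lower with 2 libraries per group. The part of these markers, and of the cerebellar ones, in the Cxcl12 and Cxcr4 results was not tested.

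Ackr2, which takes up inflammatory CC chemokines, had 2.30, 1.43 and 1.99 TPM in 18M_E1F2, against 0.738, 0.0413 and 0.483 TPM in 5M_Ctrl (1.05 ± 0.20 SE, adjusted p = 0.00235). Ackr2 passed the filter through 18M_E1F2, the group where it was high, and without a filter its adjusted p in limma was 0.00390. The 18M_Ctrl libraries, at 1.25, 0.758 and 0.941 TPM, lay between the other groups without overlap, and neither step passed the test (adjusted p = 0.0793 for treatment and 0.105 for age). Cxcl14 was higher than in 5M_Ctrl by 0.52 ± 0.088 (SE, adjusted p = 0.00133). Ccl27b had 30.7, 14.9 and 22.2 TPM in 18M_E1F2, and differed from 5M_Ctrl by 1.14 ± 0.23 (SE, adjusted p = 0.00332). Ccl21a passed at an adjusted p of 6.31e-06 against the 5M_Ctrl libraries listed at 0, and at 0.0114 or less under 22 alternatives. Of the lymphatic and high endothelial markers, Glycam1 was listed at 0 in 18M_E1F2 and 5M_Ctrl, Mmrn1 was at or under 0.0326 TPM in all libraries, and 2 of 3 tested genes fell in this comparison, also with 2 libraries per group. The highest gene of that list was Pdpn, at 15.7 TPM on average, and 4 of its 8 genes were under 1 TPM in every library. Which cells the fall came from was not tested.

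The calls of Ccl22 and Ccl21d lay nearer the threshold. Ccl22, a ligand of Ccr4, had 2.10, 1.35 and 4.08 TPM in 18M_E1F2, against 0.630, 0.658 and 0.649 TPM in 5M_Ctrl (1.02 ± 0.37 SE, adjusted p = 0.0459). Like Ackr2, it passed the filter through 18M_E1F2, the group where it was high. Ccl21d had 3.04, 1.39 and 2.54 TPM in 18M_E1F2, against 1.58, 0.643 and 1.3 TPM in 5M_Ctrl (0.60 ± 0.21 SE, adjusted p = 0.0442), and is the only called member here whose groups overlapped. Leaving out 1 library ended the Ccl21d call in 7 of 9 cases (adjusted p up to 0.150) and the Ccl22 call in 6 (up to 0.160). For Ccl21d they were 18M_E1F2 replicates 1 and 3, all 18M_Ctrl replicates and 5M_Ctrl replicates 2 and 3. For Ccl22 they were 18M_E1F2 replicates 1 and 3, 18M_Ctrl replicate 2 and all 5M_Ctrl replicates. Without a filter the adjusted p was 0.0610 for Ccl21d and 0.0659 for Ccl22, which ended both calls. Over their alternatives that keep every library of 18M_E1F2 and 5M_Ctrl, it was highest at 0.0848 for Ccl21d and 0.162 for Ccl22. With 2 libraries per group, 12.9% of all genes and 3 members were called, Ccl21a (adjusted p = 0.00200), Cx3cl1 (0.0280) and Cxcl12 (0.0459), and the other 8 were not.

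Among the remaining homeostatic ligands no call was made. Ccl27a had 420, 213 and 326 TPM in 18M_E1F2, 308, 295 and 215 TPM in 18M_Ctrl and 249, 226 and 266 TPM in 5M_Ctrl, and its groups overlapped. Ccl19, the other Ccr7 ligand, averaged 22.1 ± 7.74, 21.1 ± 3.77 and 14.9 ± 4.13 TPM in 18M_E1F2, 18M_Ctrl and 5M_Ctrl (SD, n = 3 each). Ccl25, a Ccr9 ligand of thymus and gut, averaged 10.1 ± 0.821, 9.12 ± 3.61 and 6.36 ± 0.671 TPM, and its 0.59 ± 0.22 (SE) above 5M_Ctrl in 18M_E1F2 came to an adjusted p of 0.0502. Ccl21b and Ccl28, a mucosal ligand of Ccr10, averaged 4.19 ± 1.86 and 1.87 ± 1.08 TPM in 18M_E1F2, 3.65 ± 0.430 and 1.92 ± 1.44 TPM in 18M_Ctrl, and 2.35 ± 0.649 and 0.803 ± 1.01 TPM in 5M_Ctrl.

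**Figure D3:**
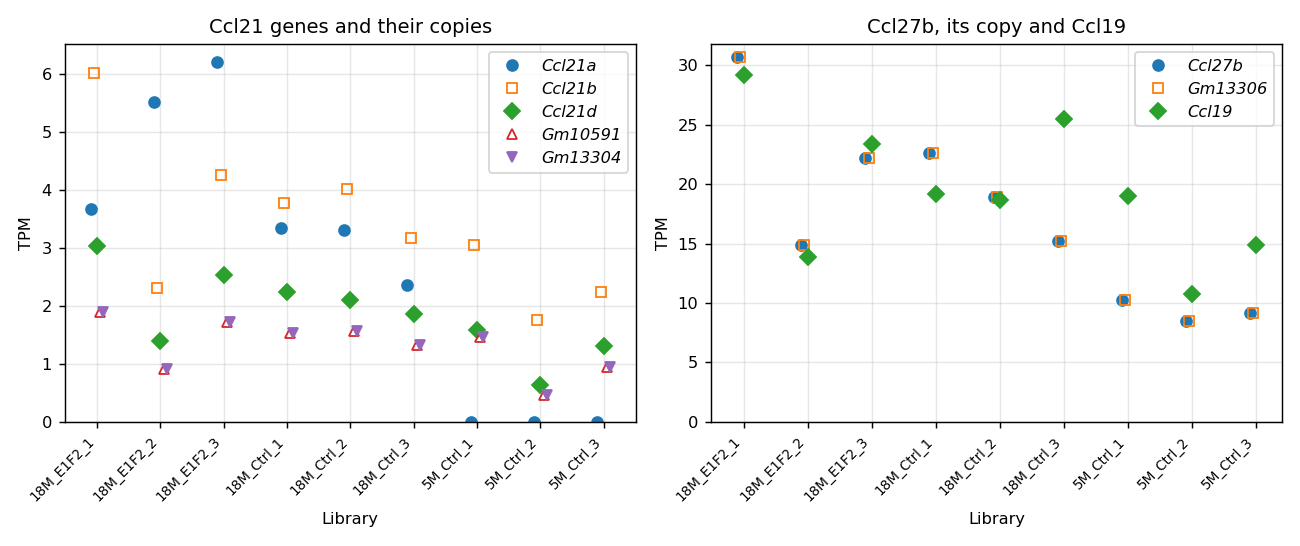
TPM per library of the Ccl21 genes with their near-identical predicted genes (left), and of Ccl27b, the predicted gene Gm13306 and Ccl19 (right). Ccl21a is at 0 in every 5M_Ctrl library while Ccl21b and Ccl21d are not, Gm10591 and Gm13304 coincide, and Ccl27b and Gm13306 coincide.

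The inflammatory CC ligands stayed at 0 to 11.5 TPM. Of the 16 genes 7 were tested, and the calls among them were Ccl12, which fell with GRP-E1F2 in aged mice, and Ccl22, which rose between 18M_E1F2 and 5M_Ctrl. Ccl17, like Ccl22 a Ccr4 ligand, averaged 7.97 ± 2.41, 9.24 ± 2.52 and 8.11 ± 1.94 TPM in 18M_E1F2, 18M_Ctrl and 5M_Ctrl (SD, n = 3 each). Ccl6 averaged 5.14 ± 0.642, 5.93 ± 0.693 and 4.19 ± 1.99 TPM in the same order. Ccl9, which like Ccl6 acts on Ccr1 in mice, had 7.02, 2.07 and 4.85 TPM in 18M_E1F2, 0.375, 1.06 and 5.47 TPM in 18M_Ctrl and 5.49, 1.33 and 3.90 TPM in 5M_Ctrl, a wide spread in every group. Ccl5, made by T cells, had 1.29 to 3.99 TPM, and Ccl24, an eosinophil attractant, had 0.369 to 3.00 TPM. Of the interferon-inducible ligands, Cxcl10 had 1.82, 1.77 and 0 TPM in 18M_E1F2, against 1.93, 3.62 and 3.13 TPM in 18M_Ctrl. Those groups were apart but did not pass the test (-0.95 ± 0.38 SE, adjusted p = 0.112), and the library at 0 is the one at 0 for Ccl12. Cxcl16, the membrane-bound ligand of Cxcr6, averaged 0.996 ± 0.519, 1.42 ± 0.120 and 1.39 ± 0.0793 TPM in 18M_E1F2, 18M_Ctrl and 5M_Ctrl, and shares 552 of its 3021 exon bases with Zmynd15 on the opposite strand. Cxcl10 shares 133 exon bases with Art3 and Ccl25 shares 204 with Elavl1 in the same way, and whether reads were counted by strand is not stated.

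Among the receptors only Ackr1 and Ackr3 were above 5 TPM in every library. Ackr1, which binds both CC and CXC chemokines on red cells and venules, had 40.2, 39.9 and 39.5 TPM in 18M_E1F2, 31.5, 36.6 and 40.7 TPM in 18M_Ctrl and 40.3, 42.8 and 41.5 TPM in 5M_Ctrl, with no call in any comparison. It shares 361 of its 1405 exon bases with Cadm3 on the same strand, an adhesion gene at 191 to 418 TPM, so its reads and those of Cadm3 may not be separable. Ackr4, which takes up Ccl19, Ccl21 and Ccl25, was under the filter, with 0.142, 0.177 and 0.138 TPM in 18M_E1F2, 0.716, 0.532 and 0.478 TPM in 18M_Ctrl and 1.03, 0.871 and 0.937 TPM in 5M_Ctrl. The 3 groups of Ackr4 values did not overlap. Without a filter, Ackr4 fell in 18M_Ctrl against 5M_Ctrl (-0.31 ± 0.062 SE, adjusted p = 0.0210), in 18M_E1F2 against 18M_Ctrl (-0.45 ± 0.062 SE, adjusted p = 0.00281) and in 18M_E1F2 against 5M_Ctrl (-0.76 ± 0.062 SE, adjusted p = 8.38e-05), where 13%, 16.6% and 38.0% of all genes were called. That fit took in 50 members and called 6, 6 and 11 of them. In each comparison a filter of 0.1 TPM let 41 members into the test and called 5, 5 and 15 of them, where 15%, 18.7% and 42.8% of all genes were called. With no filter and 2 libraries per group, the adjusted p of Ackr4 was 0.506, 0.187 and 0.0285 in those comparisons.

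The other receptors under the filter averaged under 1 TPM as well. Ccr10, the Ccl27 and Ccl28 receptor, averaged 0.480 ± 0.0833, 0.755 ± 0.181 and 0.784 ± 0.223 TPM in 18M_E1F2, 18M_Ctrl and 5M_Ctrl (SD, n = 3 each). Ccr1 averaged 0.210 ± 0.0717, 0.233 ± 0.0841 and 0.673 ± 0.217 TPM, and without a filter it was called lower than in 5M_Ctrl in 18M_E1F2 (adjusted p = 0.00751) and in 18M_Ctrl (adjusted p = 0.0300). These calls ended when 2 libraries per group were used as well, at adjusted p values of 0.164 and 0.478. Ccr6, the Ccl20 receptor, had 0, 1.74 and 1.12 TPM in 18M_E1F2 and 0.626, 0.664 and 0.571 TPM in 18M_Ctrl, and was listed at 0 in 5M_Ctrl. Its difference between 18M_E1F2 and 5M_Ctrl was called with a filter of 0.1 TPM (adjusted p = 0.0464) and not without a filter (adjusted p = 0.0600). Ccr7, the receptor of Ccl19 and Ccl21, was at or under 0.0852 TPM in every library, and Ccr2, which Ccl2 and Ccl12 bind, at or under 0.122 TPM. At that level, and without a filter, Ccr2 was called lower in 18M_E1F2 than in 18M_Ctrl (-0.13 ± 0.031 SE, adjusted p = 0.0261) and higher in 18M_Ctrl than in 5M_Ctrl (0.13 ± 0.031 SE, adjusted p = 0.0337). Both calls ended with 2 libraries per group (adjusted p = 0.481 and 0.545). Ccr9, Cxcr1, Cxcr2, Cxcr3, Cxcr5 and Cxcr6 ranged from 0 to 0.308 TPM.

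The ligands under the filter were mostly listed at 0 in some libraries. Ccl11, an eosinophil attractant, was listed at 0 in all 18M_E1F2 libraries, at 1.97, 0 and 0 TPM in 18M_Ctrl and at 2.80, 0.583 and 2.29 TPM in 5M_Ctrl. Between 18M_E1F2 and 5M_Ctrl it was called without a filter (adjusted p = 0.0382) and not when 2 libraries per group were used as well (adjusted p = 0.271). Ccl8 was the reverse, with 0, 1.81 and 1.21 TPM in 18M_E1F2, 0.658, 1.24 and 0.535 TPM in 18M_Ctrl and 0 in 5M_Ctrl. The neutrophil attractant Cxcl1 had 0 to 2.35 TPM and Ccl3 had 0 to 3.02 TPM, with zeros in all 3 groups for Ccl3. Ccl2, the main monocyte attractant, was listed at 0 in every 18M_E1F2 library and had at most 0.604 TPM elsewhere. Ccl1, Ccl4, Ccl7, Ccl26, Cxcl9, Cxcl13 and Xcl1 ranged from 0 to 1.68 TPM, and Ccl26 was called between 18M_E1F2 and 5M_Ctrl with a filter of 0.1 TPM (adjusted p = 0.0471) but not without a filter (adjusted p = 0.0549). The number of reads behind these values is unknown.

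**Figure D4:**
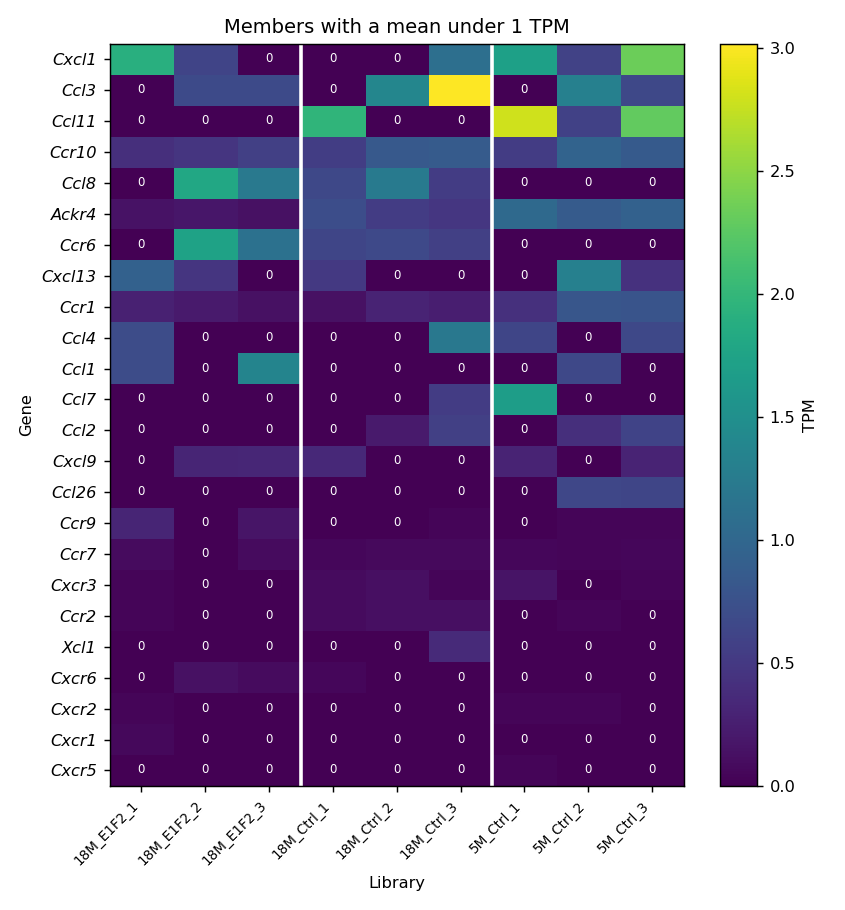
TPM per library of the 24 members above 0 in at least 1 library with a mean under 1 TPM, as colour, with zeros written in and groups separated by white lines. Ackr4 is lower in 18M_E1F2 than in the other groups, Ccl11 is at 0 in 18M_E1F2, and Ccl8 and Ccr6 are at 0 in 5M_Ctrl.

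The other genes of chemokine signalling moved in both directions. Of 24 tested signalling genes downstream of the receptors, 1 rose and 1 fell with age, 2 rose and 3 fell with GRP-E1F2 in aged mice, and 4 rose and 5 fell between 18M_E1F2 and 5M_Ctrl. Plcb3, a phospholipase C, averaged 4.32 ± 0.118, 7.74 ± 0.108 and 9.69 ± 0.916 TPM in 18M_E1F2, 18M_Ctrl and 5M_Ctrl (SD, n = 3 each) and fell in all 3 comparisons. Ptk2b, a kinase activated by calcium, averaged 104 ± 8.47 TPM in 18M_Ctrl and 50.2 ± 19.2 TPM in 5M_Ctrl (1.11 ± 0.23 SE, adjusted p = 0.0174). Of 11 tested adhesion genes, 2 rose with age, Selplg and Cd34, and Selplg, the P-selectin ligand, rose with GRP-E1F2 to 22.3 ± 2.58 TPM, against 15.7 ± 0.915 TPM in 18M_Ctrl (adjusted p = 0.0395).

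Of 10 tested NF-kB and cytokine genes, 1 rose and 2 fell with age, and 1 rose and 5 fell with GRP-E1F2 in aged mice. Myd88, an adaptor of Toll-like receptors, averaged 2.56 ± 0.487 TPM in 18M_E1F2 and 5.5 ± 0.576 TPM in 18M_Ctrl (-0.87 ± 0.12 SE, adjusted p = 0.00160). Relb rose in that comparison to 3.42 ± 0.352 TPM, against 2.34 ± 0.279 TPM in 18M_Ctrl (adjusted p = 0.0247). Of 14 tested genes on the interferon-gamma path to the CXC ligands, 2 fell with GRP-E1F2 in aged mice, Stat2 among them, and 2 rose and 3 fell between 18M_E1F2 and 5M_Ctrl. Stat2 averaged 4.83 ± 0.771 TPM in 18M_E1F2 and 9.0 ± 0.662 TPM in 18M_Ctrl (-0.79 ± 0.11 SE, adjusted p = 0.00138). Of 7 tested enzymes that cut chemokines, 1 rose and 3 fell with age, and 2 rose and 1 fell with GRP-E1F2. Adam17, a sheddase that releases Cx3cl1 from the membrane, fell to 3.04 ± 0.266 TPM in 18M_E1F2, against 4.07 ± 0.404 TPM in 18M_Ctrl (adjusted p = 0.0341). Cathepsin C (Ctsc) averaged 7.36 ± 0.613 TPM in 18M_E1F2 and 3.12 ± 0.996 TPM in 18M_Ctrl, and rose in that comparison (1.05 ± 0.15 SE, adjusted p = 0.00194). The lists' medians were -0.28 for NF-kB and cytokines, -0.025 for interferon-gamma and 0.080 for the enzymes in this comparison. Over the 66 tested genes of these 5 lists, limma called 11 for age, 17 for GRP-E1F2 in aged mice and 26 between 18M_E1F2 and 5M_Ctrl. These are 16.7%, 25.8% and 39.4%, where 16.7%, 20.8% and 46.6% of all genes were called. With 2 libraries per group it called 0, 0 and 6, where 0.0226%, 1.86% and 12.9% of all genes were, and 7, 8 and 19 had an unadjusted p under 0.05.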

How the data were processed

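RNA was sequenced from 9 libraries, 3 each of 18M_E1F2, 18M_Ctrl and 5M_Ctrl. The NEBNext Ultra II kit was used on 0.4 ug of RNA, per the labels' protocols. HISAT2, Picard, SAMtools 0.1.18, GATK and the build mm10 were used, per the submitters' processing notes. The deposited values are TPM per gene, made by the authors. The tool, annotation and strand setting behind them, and the handling of multi-mapped reads, were not given in the sources used here. TPM keeps no depth, so depth is unknown and no counting error is given; library sums were 999667 to 999929 TPM.

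On the log2(TPM + 1) scale, 13301 genes averaging 1 TPM or more were tested over all 9 libraries with limma 3.58.1 (R 4.3.3; two-sided; eBayes with a trend). A call is an adjusted p under 0.05, Benjamini-Hochberg, across the 13301 genes. The test was tried on simulated data first, with values drawn independently for each library. That trial did not copy the in-between libraries, so it does not show how they affect the p-values. The members, gene lists, motifs and the fit of 2 libraries per group were chosen with earlier results of these data known, and that fit without a filter was added after the data were seen. Some results are not reported here. Every other tested member is named, other members by role, and up to 4 genes per pathway list. The between-library shares were first computed without a filter, then with one, and both are given. Same-numbered libraries deviated together with r of -0.055 to 0.126, and differently numbered ones with r of -0.134 to 0.123. No pairing by number was seen, and with 3 libraries per group this check cannot exclude it. Positions and promoters came from RefSeq GRCm38.p6, coding sequences from GENCODE vM21. Protein sequences were not analysed here. Marker symbols Fcrls, Trac, Trbc2, Ighm and Igkc, and Ccl21c, Ccl21e, Ccl21f and Cxcl11, were not analysed here. Figures were drawn with matplotlib 3.10.9 in Python 3.11.15.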

Additional observations from a re-analysis of the deposited data

How the results depend on the processing

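The number of members called moved with the setting, and so did the share of all genes called. For 18M_Ctrl against 5M_Ctrl the 3 calls among 26 members became 6 of 50 without a filter (13% of all genes), 5 of 41 with a mean of at least 0.1 TPM (15%), 22 of 26 with array weights (89.2%) and 0 with 2 libraries per group, with a filter (0.0226%) or without (0.0435%). Leaving out 1 library gave 1 to 6 (2.79% to 19.8%). For 18M_E1F2 against 18M_Ctrl the 5 calls became 3 with a pseudocount of 0.1 TPM (20.4%), 1 of 11 with a mean of at least 5 TPM (21.4%), 25 with array weights (95.9%) and 0 with 2 libraries per group, with a filter (1.86%) or without (0.555%). Leaving out 1 library gave 2 to 7 (10.1% to 23.0%). For 18M_E1F2 against 5M_Ctrl the 11 calls became 6 of 11 with a mean of at least 5 TPM (48.6%), 24 with array weights (91.9%), 3 with 2 libraries per group (12.9%) and 2 of 50 when no filter was used as well (5.0%). Leaving out 1 library gave 8 to 13 (35.6% to 49.9%). A fit with the replicate number as a block gave 4, 5 and 13 calls, and the check of the numbers showed no pairing. With the block Ackr2 was also called for age, and in 18M_E1F2 against 18M_Ctrl Ackr2 and Cx3cl1 were called while Ccl21a (adjusted p = 0.0527) and Ccl12 (0.0571) were not. The array weights gave the 3 in-between libraries 9.28 to 156 and the others at most 0.203.

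The direction changed 41 times under an alternative, in 20 results, 4 times with a call. With array weights Cxcr4 in 18M_Ctrl against 5M_Ctrl was 0.065. With the same weights Ccl28, Ccl17 and Ccl5 in 18M_E1F2 against 18M_Ctrl were -0.29, 0.11 and -0.016, and Ccl17 in 18M_E1F2 against 5M_Ctrl 0.71. With 2 libraries per group, with or without a filter, Ccl17 for age was -0.072 and Ccl19 for treatment -0.13. A pseudocount of 0.1 TPM put Ccl22 for age at -0.49 and one of 5 TPM put Ccl28 for treatment at -0.0017. Median-of-ratios scaling put Ackr1 and Ccl17 in 18M_E1F2 against 5M_Ctrl at 0.019 and 0.037, and quantile normalisation put Ccl17 and Ccl24 there at 0.077 and 0.0040. The cause was not tested.

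On leaving out 1 library, the age differences ranged from -0.18 to 0.11 for Cxcr4, -0.067 to 0.11 for Cxcl14, -0.022 to 0.37 for Ccl17, -0.51 to 0.057 for Ccl5, -0.34 to 0.41 for Ccl22 and -0.017 to 0.054 for Cxcl16. The treatment differences ranged from -0.033 to 0.46 for Ccl27a, -0.20 to 0.31 for Ccl19, -0.038 to 0.46 for Ccl27b, -0.071 to 0.45 for Ccl25, -0.15 to 0.39 for Ccl21b, -0.074 to 0.30 for Ccl21d, -0.40 to 0.39 for Ccl28 and -0.090 to 0.12 for Ccl5. Between 18M_E1F2 and 5M_Ctrl they ranged from -0.23 to 0.15 for Ccl17, -0.10 to 0.71 for Ccl9, -0.49 to 0.070 for Ccl5 and -0.49 to 0.29 for Ccl24. None of these was called in the main fit on all 9 libraries, though array weights on the same libraries called several. On leaving out 1 library, limma called Ccl5 between 18M_E1F2 and 5M_Ctrl (lowest adjusted p = 0.0296). Depth is unknown, so what it limits for members under 1 TPM cannot be stated.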
